A study of Drosophila melanogaster with 6 samples.

Results

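The adult testis cDNA clones are transcripts that the array design names after clones of an adult testis library, each written AT and 5 digits. The arrays carry 142 such probes for 125 clones, of 32162 probes in all. A probe entered the comparison when it was well above background, by the scanner software's flag, on all 3 arrays of Top3b26 or on all 3 arrays of WT. This left 80 testis clone probes for 75 clones, of 23003 probes tested. A clone name says from which library a cDNA was sequenced, and a transcript found in testis can also be made in other tissues.

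RNA came from heads of adult Drosophila melanogaster and was hybridized to 6 one-colour arrays, 1 per independent RNA preparation. The 3 Top3b26 preparations came from flies carrying a Top3beta allele made by remobilizing a P-element. The 3 WT preparations came from w1118 flies, and the labels give w1118 as the strain background of both groups. The WT stock was bought and the mutant stock was received as a gift, so genotype and stock history cannot be told apart. Heads were pooled by freezing and sieving, and the sources used here give no sex and no age beyond adult. Nothing in them says that the preparations came from separate cultures, so p-values measure the spread between preparations. No probe could be matched to Top3beta, so the allele was not checked in these data.

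In the testis, male germ cells divide, grow as spermatocytes, pass through meiosis and elongate into sperm. Spermatocytes are known for a broad transcription programme of their own, with testis variants of proteasome subunits, mitochondrial proteins and cytoskeletal proteins. Many of these messages are stored and translated later, when the germ cells transcribe little. Top3beta is a topoisomerase that acts on DNA and RNA and works with the Tudor protein TDRD3. In pooled heads, fewer cells that make a transcript and less of that transcript per cell cannot be told apart.

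Levels are log2 processed signals after a z-transformation of each array, brought back to a log2 scale with the average spread of the arrays. Thus 0 is the mean of the array, and 1 unit is a doubling on an array of average spread and about a doubling on the others. The arrays differed in brightness. The median signal was 57.2 to 186 times that of the negative controls, and 71.1% to 81.2% of spots were well above background. The arrays lay on 2 slides, with Top3b26 1, WT 1 and WT 2 on slide 1 and Top3b26 2, Top3b26 3 and WT 3 on slide 2. A level that was not well above background sets only an upper limit for the transcript on that array.

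The testis clones differed more between preparations of the same genotype than between the genotypes. Their median level was 0.94, -1.70 and 1.94 on Top3b26 1, 2 and 3, against 0.28, -1.002 and -0.61 on WT 1, 2 and 3. Top3b26 thus held both the highest and the lowest array, with the WT arrays between them. The medians averaged 0.39 ± 1.88 in Top3b26 and -0.45 ± 0.66 in WT (SD, n = 3 each). From the highest array to the lowest the testis clone median spanned 3.64, against 0.86 for the 247 tested probes of adult head clones, 0.83 for the 69 of ovary clones and 0.20 for all tested probes. The 22 tested probes of larva and pupa clones spanned 1.20, and their median was also highest on Top3b26 3. Over the 6 arrays it correlated with the testis clone median at 0.51. Among the WT arrays alone the testis clone median spanned 1.28. This compares with 0.25 for head clones, 0.77 for larva and pupa clones and 0.14 for all tested probes. The span depended on the scaling, but under each of the 6 tried it was wider for the testis clones than for head clones, ovary clones or all tested probes. With median-difference scaling it was 4.35, against 0.24 for head clones and 0.58 for all tested probes, and with normexp background correction it was 2.38, against 1.17 for head clones and 1.23 for all.

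**Figure D1:**
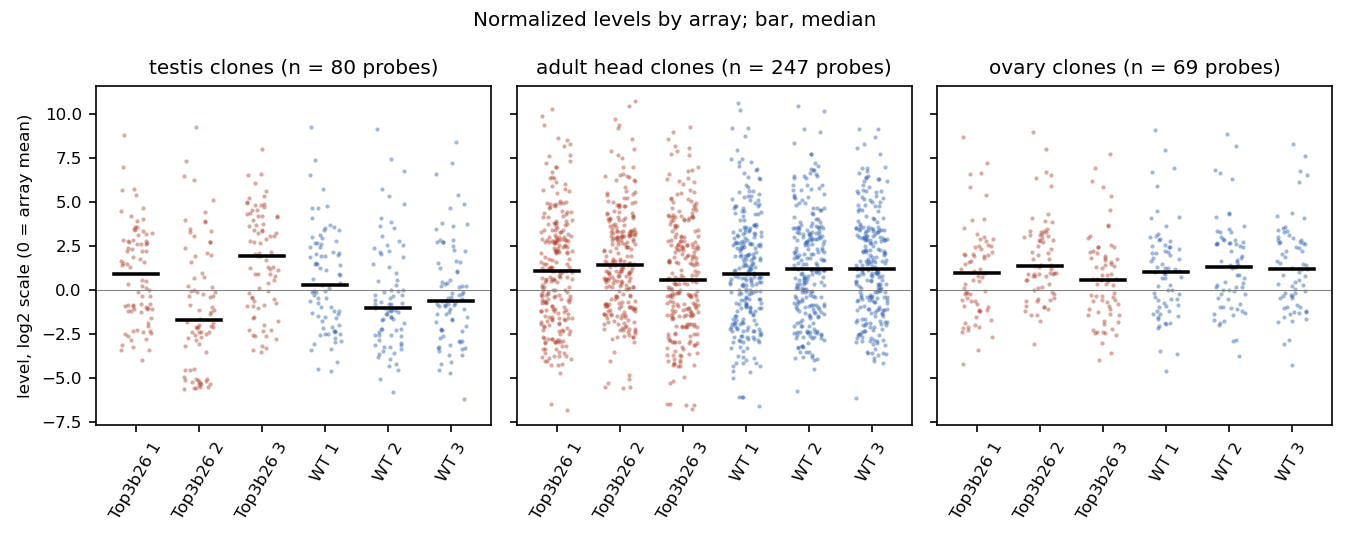
Normalized level of each tested probe (vertical axis, log2 scale, 0 = array mean) on each of the 6 arrays, Top3b26 in red and WT in blue, for testis, adult head and ovary clones. Each point is a probe and the bar is the median. Testis clone medians run from -1.70 on Top3b26 2 to 1.94 on Top3b26 3, while the medians of head and ovary clones stay between 0.55 and 1.44.

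The order of the arrays was the same under all 6 scalings tried: Top3b26 3 was highest, followed by Top3b26 1, WT 1, WT 3 and WT 2, with Top3b26 2 lowest. The ratio of median signal to negative controls fell in that same order. It was 132, 57.2 and 186 on Top3b26 1, 2 and 3, against 105, 68.4 and 94.5 on WT 1, 2 and 3. The part of array brightness in the result was not tested. The head and ovary clones, measured on the same arrays, ran the other way after the z-transformation. Their medians were highest on Top3b26 2 and lowest on Top3b26 3, and over the 6 arrays they correlated with the testis clone median at -0.91 for head clones and -0.97 for ovary clones, the ovary clones in the exact reverse order. This was not particular to head and ovary clones. The correlation was -0.96 for embryo clones, -0.85 for cultured cell clones and -0.73 for all tested probes. The extremes of head and ovary clones changed with the scaling, and with median-difference scaling the head clones were highest on Top3b26 1 and lowest on WT 1.

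Some single clones repeated the order of the medians. That order was taken from these same probes, which favours the testis clones in the counts that follow. Of the 79 testis clone probes measured on all 6 arrays after outlier spots were left out, 46 (58.2%) had their highest level on Top3b26 3, against 15.0% of all tested probes. Their lowest level fell on Top3b26 2 in 34 (43.0%), against 14.1% of all. Both held in 31 (39.2%), against 9.68% of all tested probes, 4.05% of head clones, 13.6% of larva and pupa clones and 0 of the 69 ovary clones. The full order of the 6 arrays was found in 22 testis clone probes (27.8%), against 4.92% of all and 0.81% of head clones. Under the other scalings, between 29 and 35 testis clone probes were highest on Top3b26 3 and lowest on Top3b26 2, against 8.04% to 15.6% of all tested probes.

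The WT arrays also differed among themselves, on a smaller scale. Their order was taken from the testis clone medians on these same arrays, which favours the testis clones in the next count. WT 1 was above WT 3 and WT 3 above WT 2 in 29 of the 79 testis clone probes (36.7%), against 13.0% of all tested probes, 4.45% of head clones, 13.6% of larva and pupa clones and 21.9% of cultured cell clones. Clones with a wide gap between Top3b26 3 and Top3b26 2 also tended to have a wide gap between WT 1 and WT 2. Across the 79 probes these gaps had a Pearson correlation of 0.77 and a Spearman correlation of 0.71, against 0.65 and 0.49 across all tested probes. The probes share the same 4 arrays, so this describes these libraries.

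The testis clones did not move as 1 block. The highest level of a probe exceeded its lowest by a median of 2.18 (quartiles 1.47 and 6.39), with extremes of 0.37 and 10.5. The corresponding median was 1.49 for head clones, 1.28 for ovary clones and 1.25 for all tested probes, and 1.98 for the 22 tested probes of larva and pupa clones. The gap was over 4 in 32 testis clone probes (40.5%), against 9.68% of all tested probes, 9.31% of head clones, 27.3% of larva and pupa clones and 0 ovary clones. With normexp background correction 20 testis clone probes had a gap over 4. The gap was over 8 in 14 (17.7%), against 3.22% of all, and none of these 14 was well above background on Top3b26 2. The same held for 664 of the 739 probes with a gap over 8 among all tested probes. When levels not well above background were raised to the lowest level flagged as above background on that array, a choice made after the data were seen, 28 testis clone probes (35.4%) had a gap over 4, against 8.82% of all, and 5 (6.33%) had one over 8, against 1.18% of all. At the other end, 37 testis clone probes had a gap of 2 or less, and only 10 lay from 2 to 4.

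**Figure D2:**
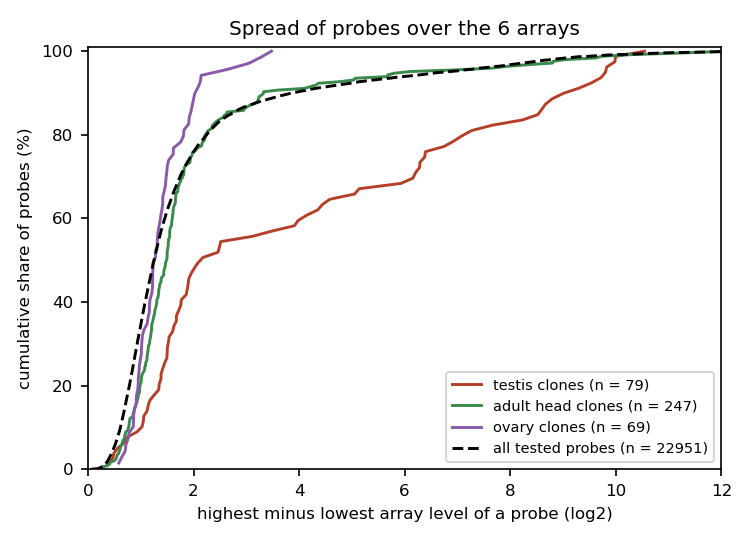
Cumulative share of probes (vertical axis, percent) by the difference between the highest and lowest array level of a probe (horizontal axis, log2), for testis, head and ovary clones and all tested probes with a level on all 6 arrays. The testis clone curve separates from the others, with 40.5% of its probes beyond a difference of 4, against 9.68% of all tested probes.

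The wide and the narrow clones had different array profiles. In the 32 with a gap over 4, the median level was 1.82, -5.001 and 3.53 on Top3b26 1, 2 and 3, against 1.08, -1.63 and -0.64 on WT 1, 2 and 3. Of these 32, 27 were highest on Top3b26 3 and lowest on Top3b26 2. In the 37 with a gap of 2 or less, the median was 1.503, 1.61 and 1.18 on Top3b26 1, 2 and 3, against 0.42, 0.96 and 0.56 on WT 1, 2 and 3, and 1 of the 37 had that pair of extremes. Of these 37, 19 were highest on Top3b26 2 (11 to 20 under the other scalings), as were 44.8% of all tested probes. The 10 brightest testis clone probes, with mean levels of at least 3.45, had gaps between 0.37 and 1.49 after the z-transformation.

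**Figure D3:**
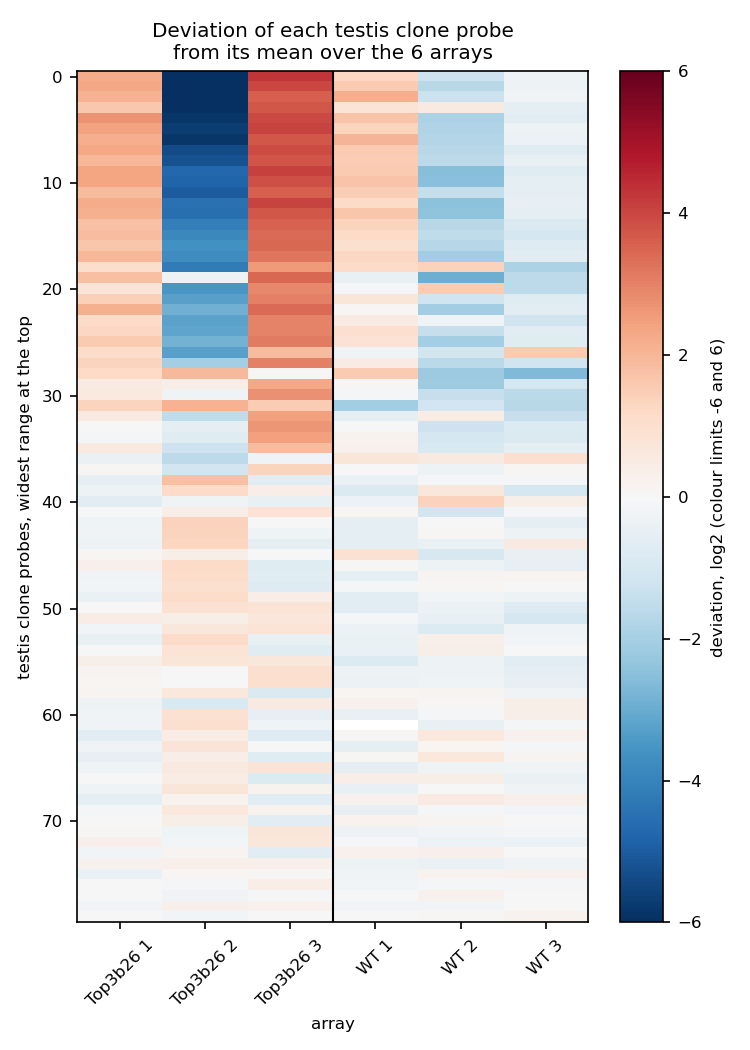
Deviation of each of the 80 tested testis clone probes (rows, widest difference between arrays at the top) from its own mean over the arrays, with Top3b26 arrays left of the line and WT arrays right of it. Red is above the probe's mean and blue below it, on a log2 scale limited at -6 and 6, and the white gap is an outlier spot that was left out. The upper rows are high on Top3b26 3 and low on Top3b26 2, and the lower rows show small deviations on all arrays.

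The wide pattern was also seen in some clones measured well above background on every array. Of the 32 probes with a gap over 4, 6 were well above background on all 6 arrays. Over the 47 testis clone probes so detected, the median spanned 1.95. It ran from 1.94 on Top3b26 3 to -0.01 on WT 2, with 0.24 on Top3b26 2. AT30951 had levels of 5.40, -0.32 and 6.61 on Top3b26 1, 2 and 3, against 4.64, 1.33 and 2.75 on WT 1, 2 and 3, the largest SD among the 47 testis clone probes well above background on all 6 arrays. AT04640 had levels of 2.37, -2.65 and 3.63 in Top3b26, against 0.28, -1.85 and -0.45 in WT. AT09606 had levels of 2.24, -2.16 and 3.77 in Top3b26, against 1.53, -1.36 and -0.08 in WT. In all 3 clones Top3b26 3 was highest and Top3b26 2 lowest, and the WT arrays lay between them.

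The levels of other clones were nearly flat. AT17348 had 3.48, 3.29 and 3.42 in Top3b26, against 3.42, 3.52 and 3.66 in WT. AT15050 had 4.67, 4.43 and 4.58 in Top3b26, against 4.67, 4.92 and 4.69 in WT. AT08919 had 2.86, 2.76 and 3.24 in Top3b26, against 2.68, 2.78 and 2.73 in WT. These had the smallest SDs over the 6 arrays, and their levels overlapped between the genotypes except for AT15050, whose WT levels were all slightly above its Top3b26 levels.

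The 3 brightest testis clones were also steady. AT25373 had 8.82, 9.28 and 8.02 in Top3b26, against 9.24, 9.17 and 8.43 in WT. AT02348 had 6.997, 7.34 and 6.55 in Top3b26, against 7.41, 7.47 and 7.20 in WT. The brighter probe of AT16518 had 5.71, 6.50 and 5.63 in Top3b26, against 6.53, 6.77 and 6.60 in WT. All 3 were lowest on Top3b26 3, the array on which the testis clones as a group were highest. The same array was lowest for 58.1% of all tested probes and 62.8% of head clones. This lowest array was not kept by all 3 with median-difference scaling, quantile normalization or normexp, and with normexp their gaps widened to 4.21, 2.40 and 2.26.

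Detection followed the same arrays. Of all 142 testis clone probes, 84.5%, 43.0% and 90.1% were well above background on Top3b26 1, 2 and 3, against 77.5%, 52.1% and 68.3% on WT 1, 2 and 3. Over all 32162 probes the shares were 78.0%, 69.0% and 78.0% on the Top3b26 arrays and 76.3%, 71.4% and 75.9% on the WT arrays. The gap between Top3b26 3 and Top3b26 2 was thus wider for the testis clones than for the array as a whole. Of the 80 probes that passed, 47 were well above background on all 6 arrays and 12 passed only through Top3b26. The other 21 passed only through WT, and each of the 21 failed on Top3b26 2 alone. In these 21 the median level was 1.90, -5.21 and 3.68 on Top3b26 1, 2 and 3, against 1.43, -1.63 and -0.52 on WT 1, 2 and 3. AT14585, chosen after its values were seen as the clone with the widest gap, had 4.02, -4.45 and 6.09 in Top3b26, against 3.02, 0.55 and 1.53 in WT, and was not well above background on Top3b26 2.

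Each of the 62 testis clone probes that did not pass was, by the rule, missing from at least 1 array of each genotype. Of them, 40, 2 and 48 were well above background on Top3b26 1, 2 and 3, against 34, 3 and 22 on WT 1, 2 and 3. In 39 (62.9%) the probe was detected on Top3b26 1 and 3 and not on Top3b26 2, against 18.0% of all 9159 probes that did not pass. The highest level fell on Top3b26 3 in 46 (74.2%), against 22.2%. On no array well above background were 9 (14.5%), against 54.6%. At the threshold, 19 probes were detected on Top3b26 1, Top3b26 3, WT 1 and WT 3, and so missed the WT rule by WT 2 alone, with a median level of -3.85 there. The 21 probes just inside the rule had a median level of -1.63 on WT 2.

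The gene table paired 21 of the 125 clones with 1 gene each, through the clone name, and 1 clone (AT03632) with several genes. Of the 21, 8 had a probe that passed. The gene names are those of a later assembly than the array design cites, and the other clones are given by their clone names.

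Of the 8 named genes, 4 had the wide pattern. ND-B14.5AL (AT13913, chromosome 3L), named as a relative of a subunit of mitochondrial complex I, had levels of 1.32, -5.33 and 2.90 in Top3b26, against 0.86, -3.20 and -1.37 in WT. CG31542 (AT15479, chromosome 3R), a protein-coding gene, had 2.68, -4.50 and 4.17 in Top3b26, against 2.02, -2.21 and -0.27 in WT. CG31867 (AT02643, chromosome 2L), also protein-coding, had -0.35, -5.60 and 1.15 in Top3b26, against -0.25, -0.02 and -3.32 in WT. The antisense RNA asRNA:CR31429 (AT27571, chromosome 3R) had -1.20, -5.55 and -0.41 in Top3b26, against -2.51, -3.44 and -0.76 in WT. All 4 were well above background on every array but Top3b26 2 and were highest on Top3b26 3. They did not share an order within WT: ND-B14.5AL and CG31542 were highest on WT 1, CG31867 on WT 2 and asRNA:CR31429 on WT 3.

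The other 4 named genes had narrower ranges. Ten-m (AT25108, chromosome 3L), a teneurin of the cell surface that guides the matching of synaptic partners, had levels of -1.09, 0.24 and -1.53 in Top3b26, against -1.47, -0.70 and -0.71 in WT. RpS29 (AT28563, chromosome 3R), a protein of the small ribosomal subunit, had -2.49, -2.07 and -1.61 in Top3b26, against -2.35, -3.62 and -2.58 in WT, and was not well above background on WT 2. CG30385 (AT12446, chromosome 2R) had -0.01, -0.11 and 0.90 in Top3b26, against -0.47, -0.35 and -0.60 in WT. CG8204 (AT23078, chromosome 2R) had 2.71, 2.75 and 2.76 in Top3b26, against 2.15, 2.03 and 2.22 in WT. For CG30385 and CG8204 every Top3b26 array was above every WT array, whereas Ten-m and RpS29 overlapped between the genotypes.

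The 13 named genes whose probes did not pass were CG31093, wuc, CG32219, CG3748, CG32148, CG15605, CG11333, CG30284, CG9133, CG13474, puf, asRNA:CR30267 and CG13526. CG32148, CG15605, CG11333 and CG30284 were each well above background on Top3b26 1, Top3b26 3, WT 1 and WT 3 and on neither Top3b26 2 nor WT 2. CG30284, for example, had levels of 0.93, -5.39 and 2.52 in Top3b26, against -0.03, -3.64 and -2.10 in WT. The gene wuc, whose protein binds the spermatocyte regulator Aly, was detected on Top3b26 1 and 3 only, with -3.11, -4.999 and -1.03 in Top3b26, against -4.78, -4.51 and -5.86 in WT. CG13526 had the opposite pattern. It was detected on WT 1 and WT 3 only, with -6.46, -4.81 and -6.48 in Top3b26, against -1.50, -3.92 and -2.76 in WT. These genes did not enter the fit and were given no test.

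The Top3b26 and WT genotypes were compared with limma on all 23003 tested probes, with Benjamini-Hochberg adjustment over all of them. With a limit of 0.05 on the adjusted p, 1 of the 80 testis clone probes was called, higher in Top3b26, against a background of 0.882% of all tested probes. At an unadjusted p below 0.05 there were 9, or 11.25%, against 11.2% of all. The methods' thresholds stand here only for the study's false discovery rate of 0.3, taken by limma, and its fold change of 1.5. The study's further criteria, among them an average signal of at least 0 in each group, were not applied. At these thresholds 6 passed, 5 of them higher and 1 lower in Top3b26, against a background of 6.07%. Of the 6, only CG8204 and AT03386 had mean levels above 0 in both genotypes. Under median-difference scaling 6 passed these thresholds, all higher, against 9.16% of all tested probes. Under the 75th percentile shift 5 passed, all higher, against 8.50% of all. The probe that was lower, AT21495, stayed lower under both scalings and no longer passed (adjusted p by limma 0.39 and 0.32). The groups did not overlap in 13 of the 79 probes with a level on every array, against a background of 19.8%. Of these, 10 were higher in Top3b26 (background 4.85%) and 3 lower (background 15.0%). Of the 10, 5 had passed the filter only through Top3b26, which favoured that direction, and the other 5 were well above background on all 6 arrays. With the slide as a block, 0 testis clone probes were called by limma, against 44 of all 23003. With that block 1 passed the methods' thresholds, against 1.83% of all tested probes.

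Most differences pointed upwards. The difference, Top3b26 minus WT, was above 0 in 63 of the 80 testis clone probes (78.75%), against 37.1% of all tested probes, and its median was 0.50, against -0.15. The median standard error was 0.51 for testis clones and 0.34 for all. The filter itself bears on this, since 12 probes passed only through Top3b26, which favours higher levels there, and 21 only through WT. With detection on all 6 arrays the testis clone median was 0.41, against -0.18 for all probes so detected. Under median-difference scaling the centre of all probes moved to 0.03, with 53.3% above 0, and the testis clone median was 0.71. The testis clone median was 0.44 within slide 1 and 0.53 within slide 2, against -0.17 and -0.19 for all tested probes. Single arrays moved it. Without Top3b26 3 it was 0.09, without Top3b26 2 it was 0.93, and without Top3b26 1 or WT 2 it was 0.30. The number of testis clone probes past the methods' thresholds was 51 without Top3b26 2, when 40.6% of all tested probes passed them. It was 2 without Top3b26 1 and without WT 1, 1 without WT 2 and without WT 3, and 4 without Top3b26 3.

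**Figure D4:**
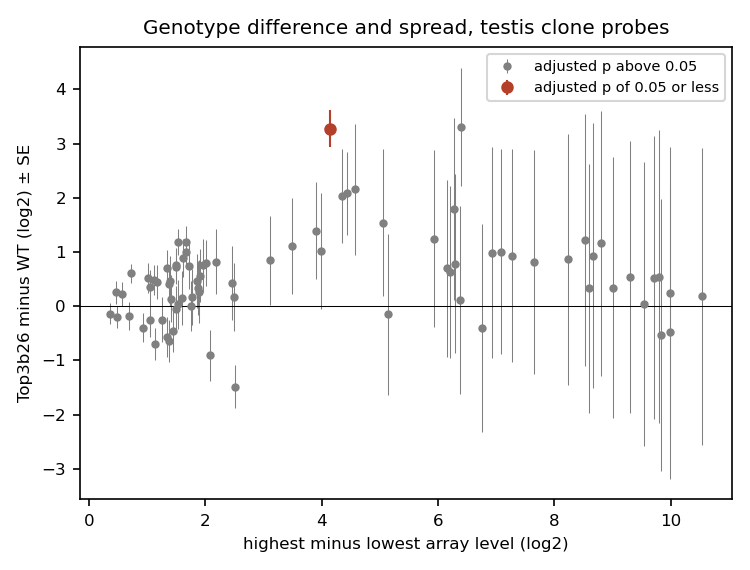
Difference between Top3b26 and WT (vertical axis, log2, with its standard error from limma) against the difference between the highest and lowest array (horizontal axis, log2) for the tested testis clone probes. The called probe, with a difference of 3.28, is in red. Probes with wide ranges have wide error bars, and most of these bars cross 0.

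The spread within a genotype was larger in Top3b26. The median SD of a testis clone probe was 0.92 over the Top3b26 arrays and 0.57 over the WT arrays, against 0.54 and 0.23 for all tested probes. The SD was higher in Top3b26 for 67 of 79 testis clone probes (84.8%), and for 88.8% of all tested probes. The wider spread in the mutant was thus seen across the whole array, and the testis clones had wide spreads in both genotypes.

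The called probe was 1 of 3 for clone AT28829. Probe A_09_P049116 had levels of -1.07, -0.32 and -0.87 in Top3b26, against -4.47, -3.55 and -4.07 in WT. All Top3b26 arrays were above all WT arrays. In WT the probe was well above background on WT 2 only, so it passed the filter only through Top3b26, where it was high, and 2 of its WT levels set upper limits. It was higher in Top3b26 by 3.28 ± 0.34 (log2, standard error), with an adjusted p of 0.018 by limma. Over the alternatives its adjusted p ranged between 0.0052 and 0.65, and the call was lost under 10 alternatives, among them a block for slide (0.099), normexp background correction (0.65, difference 1.24) and leaving out any array but Top3b26 2 (0.069 to 0.14).

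The other probes of AT28829 did not show a difference of that size. Probe A_09_P004701 had levels of -2.80, -1.32 and -1.99 in Top3b26, against -3.04, -2.55 and -2.73 in WT, a difference of 0.73 (adjusted p by limma 0.61). Probe A_09_P173865 had -2.28, -1.14 and -2.56 in Top3b26, against -2.50, -2.18 and -1.72 in WT, a difference of 0.14 ± 0.44 (adjusted p by limma 0.94). The files do not say which parts of the transcript the 3 probes read.

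Many probes of the same clone moved together. Of 15 clones with more than 1 probe, passing or not, 13 had 2. Their levels over the 6 arrays had a median correlation of 0.96, and 9 of the 13 exceeded 0.9. The lowest was -0.25, for AT25722, named here after its values were seen. In the clones with 3 probes, the correlations between probes were 0.27 to 0.75 for AT28829 and -0.95 to 0.52 for AT03160, none of whose probes passed. AT28101 had 2 tested probes that tracked each other (r = 0.99 over 6 arrays). Probe A_09_P090075 had -2.04, -2.69 and 0.57 in Top3b26, against -2.10, -3.34 and -2.88 in WT. Probe A_09_P197835 had -1.23, -1.88 and 1.30 in Top3b26, against -0.95, -2.19 and -2.01 in WT. Their differences were 1.39 ± 0.90 and 1.12 ± 0.88, and they were 0.41 and 0.17 without Top3b26 3. The probes of AT16518 (r = 0.96) differed by -0.69 ± 0.29 and -0.57 ± 0.36. The probes of AT08427 had similar differences, 0.33 ± 0.50 and 0.36 ± 0.30, but did not track each other (r = -0.12), and the dimmer of them, A_09_P048981, was not well above background on WT 2.

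**Figure D5:**
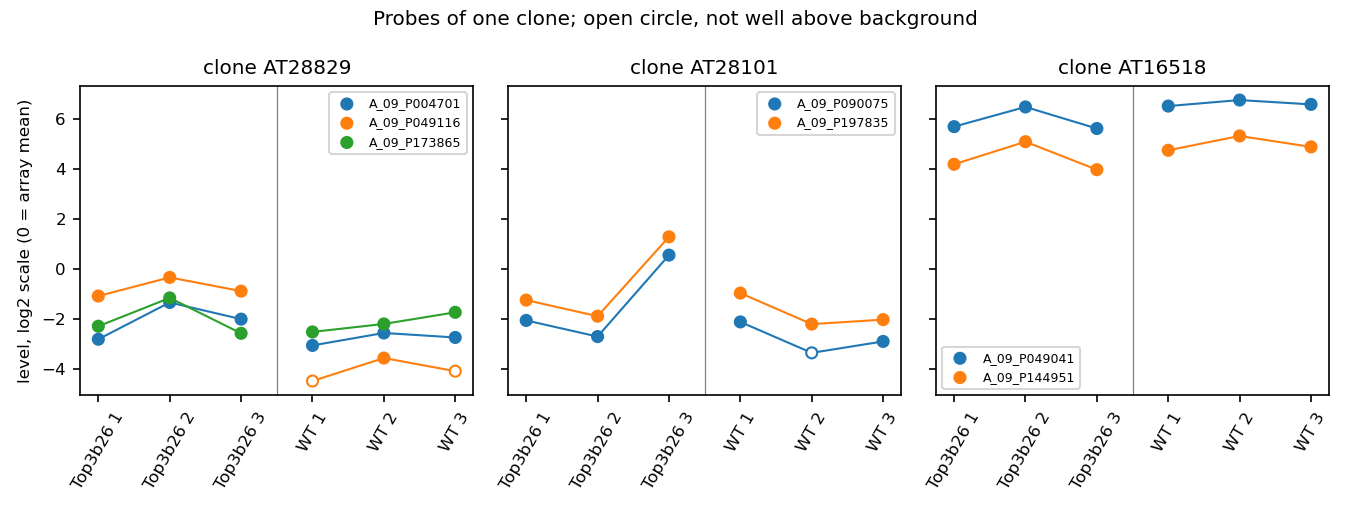
Levels (vertical axis, log2 scale, 0 = array mean) of the tested probes of clones AT28829, AT28101 and AT16518 on each array, with Top3b26 left of the line and WT right of it. Open circles were not well above background. The probes of AT28101 and of AT16518 run in parallel, whereas the probes of AT28829 differ between the genotypes by 3.28, 0.73 and 0.14.

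Among the probes well above background on all 6 arrays, the largest increases in Top3b26 were those of AT04640, with a difference of 1.79 ± 1.68 (adjusted p by limma 0.77), and AT18211, with 1.54 ± 1.36 (adjusted p by limma 0.75). AT18211 had levels of 1.45, -1.95 and 3.10 in Top3b26, against 0.61, -1.54 and -1.09 in WT. In both clones Top3b26 2 was below every WT array, so the genotypes overlapped. The largest decrease was that of AT21495, with -1.20, -2.36 and -1.02 in Top3b26, against -0.04, -0.25 and 0.15 in WT. Its groups did not overlap, and its difference of -1.48 ± 0.40 passed the methods' thresholds (adjusted p by limma 0.23). AT31109 had -2.85, -2.37 and -2.60 in Top3b26, against -2.51, -0.76 and -1.82 in WT, a difference of -0.91 ± 0.47 (adjusted p by limma 0.57).

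The remaining probes past the methods' thresholds were all higher in Top3b26 with no overlap. CG8204 was higher in Top3b26 by 0.61 ± 0.18 (adjusted p by limma 0.29). AT03386 had levels of 1.60, 1.95 and 1.94 in Top3b26, against 0.42, 0.96 and 0.56 in WT, a difference of 1.18 ± 0.24 (adjusted p by limma 0.13). AT07338 had -0.11, -0.21 and 0.13 in Top3b26, against -0.61, -1.01 and -1.54 in WT, a difference of 0.99 ± 0.30 (adjusted p by limma 0.28). Within slide 1 and slide 2 the difference of AT07338 was 0.70 and 1.51. AT03386 and AT07338 are named because they passed these thresholds. The tested probe of AT03385, A_09_P176910, was well above background on every Top3b26 array and on no WT array. It was named for this pattern and passed the filter only through Top3b26, where it was high, which favours its lack of overlap. It had -3.41, -2.51 and -2.60 in Top3b26, against -4.07, -3.81 and -4.19 in WT (adjusted p by limma 0.22). On the normalized scale it was at least 2.09-fold higher in Top3b26 against the lowest signal counted as above background on the WT arrays. Its measured difference was 0.53 within slide 1 and 1.63 within slide 2. With normexp background correction the difference was 0.044, so this bound depends on the background treatment. The other probe of AT03385, A_09_P180405, did not pass the filter and was well above background on Top3b26 3 only. No testis clone was detected on every WT array and on no Top3b26 array.

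The defining genes of the testis could not be followed in these data. Of a list of 55 testis and spermatogenesis genes, 1 was named on the array. This was Prosalpha3T, a testis variant of a proteasome subunit, and it was not well above background on any array. None of the 14 accessory gland genes, 17 ovary genes, 21 head genes and 7 gut genes was named, so the labelled tissue was not checked against its markers either. Of 5 genes of male dosage compensation, roX1 and roX2, the noncoding RNAs that coat the male X chromosome, were named, and all 6 of their probes were well above background on every array. Their mean level was 4.78, 5.37 and 4.27 on Top3b26 1, 2 and 3, against 3.97, 4.53 and 4.46 on WT 1, 2 and 3. Within Top3b26 the roX level was thus highest on the array where the testis clones were lowest, and lowest where they were highest. Over the 6 arrays, 44.8% of all tested probes were highest on Top3b26 2 and 58.1% were lowest on Top3b26 3. The part of the share of males in the result was not tested beyond these values.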

How the data were processed

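Per the file headers, intensity values were Cy3 signals from Feature Extraction 11.5.1.1, background-subtracted and detrended within each array, without normalization between arrays. A table of z-scores, score values deposited by the authors, served as an alternative. Log2 signals were z-transformed per array over the 43602 non-control spots and multiplied by the mean SD (3.89). Outlier spots were left out (1 among testis clones), spots of a probe averaged, and a probe counted as well above background where all its remaining spots were. The bound for AT03385 sets each WT array at the probe's level or at the dimmest level flagged above background, whichever is higher. Fits used limma 3.58.1 in R 4.3.3 (lmFit, eBayes, all 6 arrays, no covariate) and were tested on simulated data. No depth is defined for arrays, and the number of arrays limits the precision. The files lack mean spot signals, so normexp (offset 50) used median signals. The testis clones, lists, tests and alternatives were chosen with earlier results of these data known. Alternatives changed the scaling, background, filter, blocks and arrays. Named were the largest changes, levels and spreads, called probes, probes seen in 1 genotype, clones with gene names and clones with several probes. Gene names came from RefSeq genes of Release 6. Probe and clone sequences and transposons were not analysed here.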

Additional observations from a re-analysis of the deposited data

Results flagged for a closer look

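Outside the tested probes, 16 testis clone probes stood well above background on 1 or more Top3b26 arrays and on no WT array, whereas 4 did so on 1 or more WT arrays and on no Top3b26 array. These were 25.8% and 6.45% of the 62 testis clone probes outside the test, against 14.7% and 6.31% of all 9159 probes outside it. Of the 16, 7 were detected on Top3b26 1 and Top3b26 3 and a further 7 on Top3b26 3 alone, the 2 arrays with the highest ratio of signal to negative controls (132 and 186). The part of array brightness in this was not tested.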

How the results depend on the processing

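The highest-to-lowest span of the testis clone median lay between 1.95, with detection on all 6 arrays, and 5.10, with no filter. The median difference stayed above 0, at 0.09 to 0.93 when an array was left out and at 0.29 to 0.79 otherwise. The call of AT28829 gave a count of 1 that fell to 0 with quantile normalization, normexp, detection on all 6 arrays, the block for slide, the replicate block, the brightest probe of each clone and the methods' plain comparison of 2 groups (0 to 1 when an array was left out). Over all tested probes the count fell from 203 to between 13 and 197 in these settings (21 to 498 when an array was left out). The count of 6 past the methods' thresholds became 0 with normexp, 3 with detection on all 6 arrays, 1 with the block for slide and 2 with the replicate block (1 to 51 when an array was left out). The shares of all tested probes were then 0.73%, 6.36%, 1.83% and 2.68% (0.93% to 40.6% when an array was left out). The 13 probes without overlap became 5 with normexp, 22 with no filter, 8 with detection on all 6 arrays, 61 within slide 1 and 33 within slide 2, where fewer arrays were compared (15 to 51 when an array was left out). The share of all tested probes without overlap is given for the main setting only (19.8%), so these changes are not set apart from those of the whole array. Same-numbered arrays deviated together with r = 0.56, 0.59 and -0.37, which does not make the numbers a pairing, and with the replicate block the median difference was 0.52. Of 405 values of 23 named differences under alternatives, 27 turned in sign, all of them of differences that did not pass the test. Reversed were RpS29 (AT28563, -0.044), CG31867 (AT02643, 0.36), AT08427 (A_09_P048981, -0.23) and AT28829 (A_09_P173865, -0.039) with normexp, asRNA:CR31429 (AT27571, 0.036) with median-difference scaling, Ten-m (AT25108, -0.074) with quantile normalization, and CG31867 (0.44) and AT28829 (A_09_P173865, -0.032) with the block for slide, asRNA:CR31429 (1.77) and Ten-m (-0.0051) within slide 1, and CG31867 (1.095) and AT28829 (A_09_P173865, -0.13) within slide 2. When an array was left out, differences ranged between -0.77 and 3.35 for ND-B14.5AL (AT13913), -0.76 and 3.57 for CG31542 (AT15479), -1.14 and 1.43 for asRNA:CR31429, -1.78 and 1.597 for CG31867, -0.35 and 0.54 for Ten-m, -0.063 and 0.88 for AT08427 (A_09_P048981), and -0.28 and 0.43 for AT28829 (A_09_P173865). The cause was not tested. Signal over negative controls, lowest on Top3b26 2, limits what can be measured of dim clones there.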
